A study of Mus musculus with 28 samples.

Results

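Peripheral neural stem cells (pNSCs) are cells from outside the central nervous system that form clusters resembling neural stem cells (NSCs) in NSC medium and can be passaged as lines. Tail pNSCs were profiled by bulk RNA-seq in 2 separate experiments of the series, with 2 libraries titled Tail-pNSC and 3 libraries titled Wnt1Cre-mTmG Tail pNSCs, and these 5 of the 28 libraries were compared directly. The libraries were assigned to groups by their titles, and the comparison was chosen with earlier results of these data known. Both groups came from mice of around postnatal day 1 to 5, both carry the strain label C57BL/6, and both were grown with EGF and bFGF.

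The groups differ in more than their reporter. Tail-pNSC lines came from Nes-GFP mice, in which GFP is driven by regulatory elements of Nestin, and GFP+ tail cells were sorted and kept in NSC medium for 3 weeks before single clusters, usually clonal according to the methods, were picked. The labels of these libraries do not name the reporter, which is taken from the study's text. Wnt1Cre-mTmG lines came from Wnt1-Cre mice crossed with R26-mTmG mice, in which membrane Tomato switches to membrane GFP wherever Cre was active, here in the Wnt1 lineage that includes neural crest. The study derived tail pNSCs of these mice from unsorted cells plated at low density and also from sorted GFP- cells, and which derivation gave the sequenced lines is not stated. The pNSCs obtained were Tomato+ and GFP-, that is outside the Wnt1-Cre lineage. Transgenic mice were bred on mixed backgrounds according to the methods, lines were taken from both sexes, and the passage of each line is not given in the sources used here. Reporter, breeding and experiment, and possibly sorting, therefore change together and cannot be told apart. Each experiment also holds brain NSCs (2 and 3 libraries, labelled Brain-NSC and Wnt1Cre-mTmG brain NSCs), and the difference between these brain lines was used as the background of the tail comparison. The Brain-NSC labels name no reporter either. These lines are called Nes-GFP here because the study says that brain controls came from the same mice in most cases. The methods describe brain NSCs as passaged cultures of whole brain, without a sorting or picking step. The brain comparison may therefore lack a change in sorting that the tail comparison holds. It also holds a change of its own. Nes-GFP brain lines held *Xist*, RNA of X inactivation, and Wnt1-Cre-mTmG brain lines held Y-linked RNA, as described with those genes. Brain values below are given as Nes-GFP against Wnt1-Cre-mTmG brain lines. Their ages are not given for each experiment. The study calls the libraries of a group biological replicates, without saying whether these were separate animals, lines or cultures, so p-values measure only the spread between these libraries.

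NSCs are self-renewing progenitors of the neural tube and brain, kept proliferating in culture by EGF and FGF and marked by transcription factors such as the SoxB1 family. Their place of origin along the body axis is recorded in part by Hox genes, which lie in clusters whose order on the chromosome follows the order of their expression from hindbrain to tail, while forebrain NSCs express anterior factors in place of Hox genes. Growing cells also make cholesterol through a set of enzymes switched on together by the transcription factor SREBP2 when sterol is scarce, and respond to a shortage of amino acids or to other stress through the transcription factor ATF4.

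Expression differed widely between the tail pNSC groups. Of 14214 genes tested, 2239 (15.8%) were higher and 947 (6.66%) lower in the Wnt1-Cre-mTmG lines, 22.4% together, called at an adjusted p under 0.05 with a log2 fold change of at least 1 in either direction. All folds are given as Wnt1-Cre-mTmG over Nes-GFP lines on TMM-scaled counts relative to a library total of 1000000 (cpm), where TMM is edgeR's scaling of library size. Between the brain NSC groups of the same experiments 1489 genes (10.5%) were higher and 532 (3.74%) lower, 14.2% together. A test of the tail difference against the brain difference called 2701 genes, 19% of those tested, 1543 of them (10.9%) higher and 1158 (8.15%) lower in the tail than in the brain comparison. Tail and brain comparisons share no library, and 1051 genes were called in both in the same direction, 32.99% of the tail calls and 52% of the brain calls. A further 177 were called in both in opposite directions. The call in the tail was not made in the brain for 1958 genes, 61.46% of the tail calls. The split into higher and lower calls differed between methods. With limma on quantile-normalized log2(count + 1) values 1516 genes were called higher and 1596 lower in the tail (48.71% higher against 70.28%), and the median difference of all tested genes was -0.06 in place of 0.05 log2. Upper quartile scaling in edgeR gave 71.38% higher.

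**Figure D1:**
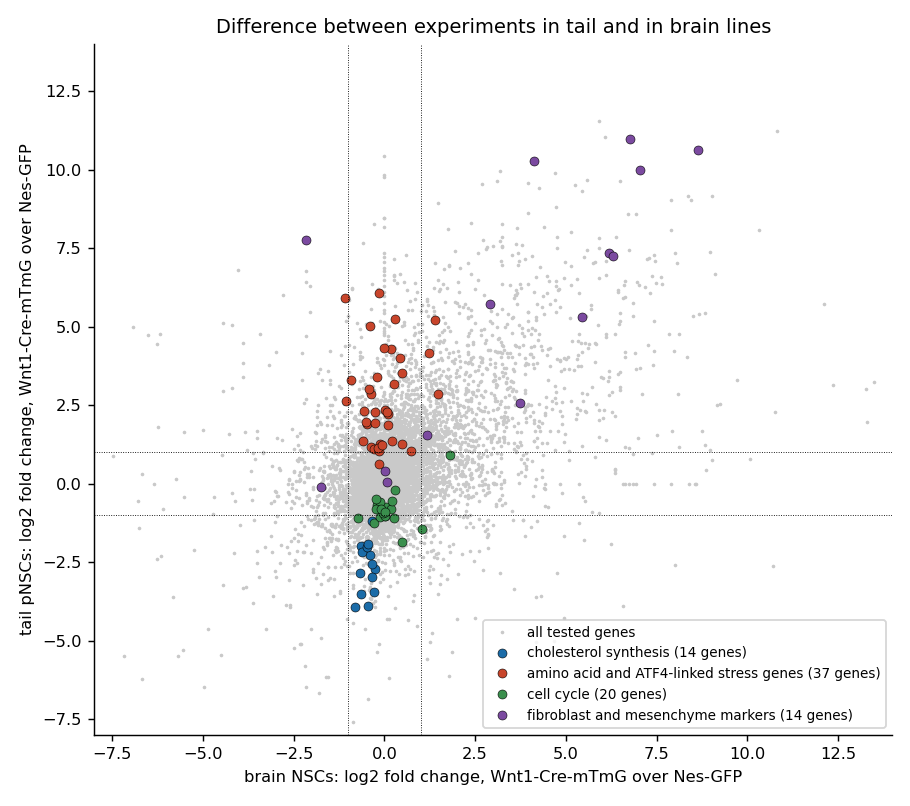
Log2 fold change of each tested gene between Wnt1-Cre-mTmG and Nes-GFP brain NSCs (horizontal axis) and between the tail pNSCs of the same experiments (vertical axis), with dotted lines at a log2 fold change of 1 in either direction. All 14 cholesterol synthesis genes lie below -1 on the tail axis and near 0 on the brain axis, 36 of 37 amino acid and ATF4-linked stress genes lie above 1 on the tail axis, and most mesenchymal markers are high on both axes.

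In global profile the Nes-GFP tail lines lay nearer to the brain lines of their own experiment than to the other tail lines. Pearson's r between group means on quantile-normalized values of 23097 genes was 0.9812 between Nes-GFP tail and Nes-GFP brain lines, 0.9715 between both tail groups and 0.975 between Wnt1-Cre-mTmG tail and brain lines. Libraries of one group correlated at 0.9884 to 0.9947 among the tail lines. These values are descriptions across genes, which are not independent replicates. Over the 1000 most variable genes r between the tail groups was 0.8618, above the 0.8197 between Wnt1-Cre-mTmG tail and brain lines, so the order of these values depended on the genes used.

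The depth ranges of the tail groups overlapped, at 17843898 to 20350715 counts per library in Nes-GFP and 19648349 to 22548268 in Wnt1-Cre-mTmG tail lines, and mitochondrial genes took 2.538 to 2.612% and 2.866 to 2.881%. The brain lines held 20079812 to 20697929 and 9846360 to 11315870 counts. Libraries of one group differed by more than counting noise, where a chi-square per degree of freedom of 1 is expected. It was 2.175 for the Nes-GFP tail lines and 1.165 to 1.411 for the Wnt1-Cre-mTmG tail lines, and 2.822 and 1.144 to 1.187 for the brain lines. The excess was small, with a common dispersion (edgeR's measure of spread beyond counting noise) of 0.000429. All p-values here rest on this small spread. Whether it includes the spread between animals or separately derived lines is not known. A count of 3, taken as the floor below which a library holds no usable level, corresponds to 0.134 to 0.170 cpm in the tail libraries.

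Both tail groups expressed the NSC programme, with part of it at different levels. Of 18 NSC identity genes, all tested, 6 were higher, 1 was lower and 11 were not called. The shares were 33.3% higher and 5.56% lower, beside 15.8% and 6.66% of all tested genes. The median log2 fold change was 0.60 against 0.05 over all tested genes. *Sox1*, a SoxB1 factor of early neuroepithelium, stood at 12.2 and 14.6 cpm in the Nes-GFP lines and 85.6, 86.6 and 91.5 cpm in the Wnt1-Cre-mTmG lines. The Wnt1-Cre-mTmG lines were 6.58-fold higher (log2 fold change 2.71 ± 0.06, s.e., adjusted p = 4.46e-54), and no library of one group reached the range of the other. In brain lines *Sox1* was at 57.5 and 54.4 cpm (Nes-GFP) and 43.7, 48 and 45.9 cpm (Wnt1-Cre-mTmG), so both tail groups lay outside the brain range, on opposite sides of it. *Sox2*, the SoxB1 factor of NSC self-renewal, was at 279 and 273 cpm in the Nes-GFP lines and 690.1, 680.1 and 691 cpm in the Wnt1-Cre-mTmG lines (log2 fold change 1.32 ± 0.03, adjusted p = 8.83e-59). *Sox3*, the other SoxB1 member, went the other way without passing the limit on fold change, at 328 and 338 cpm in the Nes-GFP lines and 184, 184 and 191 cpm in the Wnt1-Cre-mTmG lines.

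*Nes*, which encodes the intermediate filament Nestin and whose regulatory elements drive the reporter used to sort the Nes-GFP lines, was the identity gene called lower. Its level was 1944 and 1883 cpm in the Nes-GFP lines and 924, 928 and 912 cpm in the Wnt1-Cre-mTmG lines, a log2 fold change of -1.05 ± 0.02 (adjusted p = 8.59e-62). Brain lines showed no such fall, with 1416 and 1415 cpm in Nes-GFP and 1734, 1724 and 1696 cpm in Wnt1-Cre-mTmG lines, and the tail difference minus the brain difference was -1.33 on the log2 scale (adjusted p = 2.78e-57). *Msi1*, an RNA-binding protein of neural progenitors, was at 47.5 and 50.4 cpm in the Nes-GFP lines and 107, 103 and 102 cpm in the Wnt1-Cre-mTmG lines and was called higher (log2 fold change 1.09).

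The largest identity differences were in *Gfap* and *Prom1*. *Gfap*, the intermediate filament of astrocytes and of adult NSCs, was near the floor in the Nes-GFP tail lines at 0.114 and 0.15 cpm and reached 21.3, 22.2 and 22 cpm in the Wnt1-Cre-mTmG tail lines, a ratio of 166. In brain lines *Gfap* stood at 3.71 and 4.56 against 46, 51.2 and 45 cpm, so the Wnt1-Cre-mTmG lines were higher in both tissues and the tail difference was the larger one (difference 3.77 ± 0.42, adjusted p = 9.39e-13). *Prom1*, which encodes the stem cell surface protein CD133, was 0.738 and 0.60 cpm in the Nes-GFP lines and 16.2, 15.3 and 15.1 cpm in the Wnt1-Cre-mTmG lines. The brain lines differed in the same direction, with 0 and 0.196 against 4.19, 4.36 and 4.31 cpm, and the differences of the tissues were not told apart (adjusted p = 0.314). *Olig2*, a progenitor factor of the ventral neural tube that cultured NSCs express, was at 1151 and 1176 cpm in the Nes-GFP lines and 892, 903 and 907 cpm in the Wnt1-Cre-mTmG lines, and *Olig1*, its neighbour (chr16:91269772-91271933 and chr16:91225457-91228677, GRCm38), overlapped between the groups at 1628 and 1702 cpm in the Nes-GFP lines and 1625, 1605 and 1647 cpm in the Wnt1-Cre-mTmG lines. *Fabp7*, *Vim*, *Sox9*, *Pax6*, *Slc1a3*, *Hes1*, *Hes5* and *Cdh2*, which mark radial glia and neuroepithelium, were not called, with log2 fold changes from -0.10 (*Cdh2*) to 0.83 (*Hes1*).

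**Figure D2:**
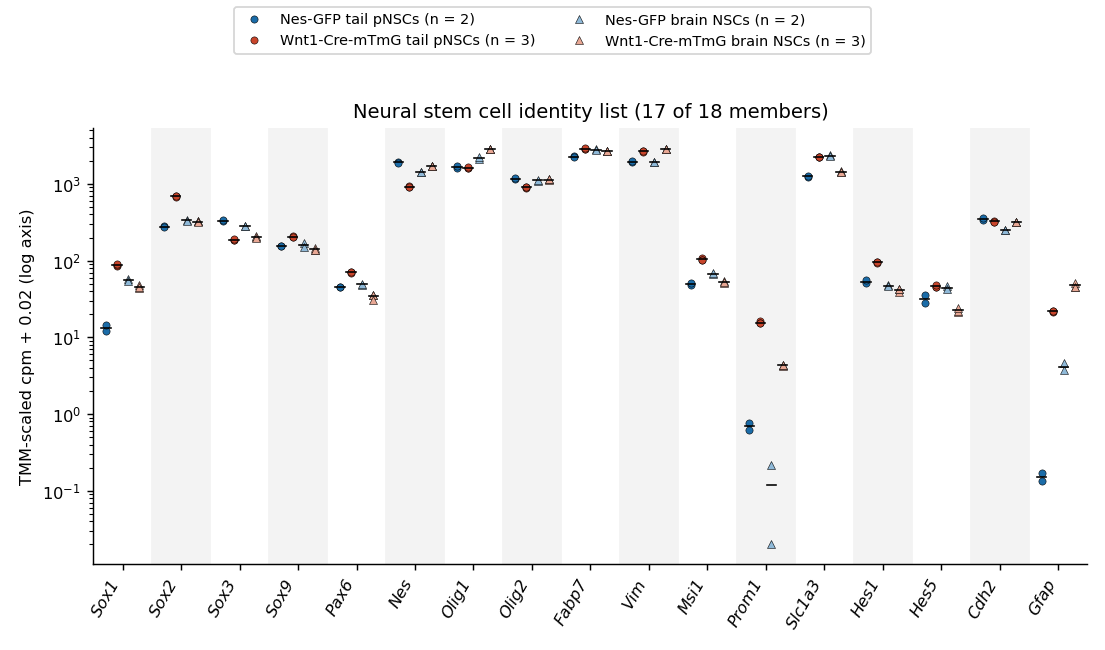
Levels of 17 of the 18 NSC identity genes in every library (TMM-scaled cpm plus 0.02, log axis); points are libraries and bars are group means. *Sox1*, *Sox2* and *Msi1* are higher and *Nes* is lower in the 3 Wnt1-Cre-mTmG tail libraries than in the 2 Nes-GFP tail libraries, and *Gfap* and *Prom1* are low in the Nes-GFP lines.

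The reporter loci themselves were read where the table holds them. *Gt(ROSA)26Sor*, the noncoding transcript of the Rosa26 locus into which mTmG was inserted, was at 18.8 and 19.5 cpm in the Nes-GFP lines and 14, 13 and 13.2 cpm in the Wnt1-Cre-mTmG lines and was not called (log2 fold change -0.51). In Wnt1-Cre-mTmG brain lines it was at 1.64, 0.594 and 1.38 cpm against 15.3 and 15.3 cpm in Nes-GFP brain lines. The brain and tail lines that carry the same mTmG label thus differed at this locus. *Wnt1*, whose regulatory elements drive the Cre, had at most 3 counts in any of the 10 libraries and was not tested.

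Genes of the Notch pathway, which keeps NSCs undifferentiated through contact between neighbouring cells, were called higher more often than lower in the Wnt1-Cre-mTmG lines. Of 15 tested, 5 were higher and 0 lower, against 15.8% and 6.66% of all genes, with a median log2 fold change of 0.71. The receptor *Notch1* was 424 and 411 cpm in the Nes-GFP lines and 860.4, 858 and 848 cpm in the Wnt1-Cre-mTmG lines, log2 fold change 1.03 ± 0.03 (adjusted p = 7.28e-52), just past the limit and under it in some of the fits without 1 library. Among ligands *Dll3*, which acts inside the cell to dampen Notch signals, was 12.1 and 13.5 cpm in the Nes-GFP lines and 65.3, 62.1 and 63.6 cpm in the Wnt1-Cre-mTmG lines, and *Dll4* was higher by 1.31 log2. The target gene *Hey2* was higher, at 0.908 and 0.65 cpm in the Nes-GFP lines and 5.7, 7.69 and 6.8 cpm in the Wnt1-Cre-mTmG lines. *Heyl*, another target, was at 0 cpm in both Nes-GFP tail libraries and 3.43, 2.53 and 3.78 cpm in the others, at least 20.3-fold. The receptors *Notch2* and *Notch3* and the glycosyltransferase *Lfng*, which tunes receptor response, were not called (log2 fold changes 0.15, 0.62 and -0.07).

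Of 18 EGF and FGF pathway genes tested, 4 were higher and 1 lower (22.2% and 5.56%, beside 15.8% and 6.66% of all tested genes), shares near those of all genes. *Egfr*, the EGF receptor, was not called, at 726 and 728 cpm in the Nes-GFP lines and 761, 767 and 743 cpm in the Wnt1-Cre-mTmG lines. *Erbb4*, a receptor for neuregulins, was 32.9 and 33.9 cpm in the Nes-GFP lines and 94.4, 96 and 86.7 cpm in the Wnt1-Cre-mTmG lines, and *Fgfr2*, a receptor for FGFs, was higher by 1.10 log2. Of ligands, *Fgf2*, which encodes bFGF, was 1.93 and 3.05 cpm in the Nes-GFP lines and 9.76, 11.3 and 10.4 cpm in the Wnt1-Cre-mTmG lines. *Hbegf*, an EGF receptor ligand, was higher by 1.04 log2, close to the limit. *Dusp5*, a phosphatase that dampens ERK signalling, was the 1 of 18 tested members called lower (-1.52), whereas its relative *Dusp6* and the ETS factor *Etv5*, both ERK-responsive, had log2 fold changes of -0.76 and -0.83 that did not reach the limit.

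Members of the BMP and Wnt pathways, which pattern the neural tube from its dorsal side, were called higher in 12 and lower in 2 of 27 cases (44.4% and 7.41%, beside 15.8% and 6.66% of all tested genes). The secreted BMP antagonist *Nog* was 1.42 and 0.65 cpm in the Nes-GFP lines and 8.42, 8.58 and 9.05 cpm in the Wnt1-Cre-mTmG lines. It was close in both brain groups (1.32 and 1.37 against 1.73, 1.39 and 1.98 cpm). *Smad6*, an inhibitory SMAD induced by BMP, was higher by 3.41 log2 (4.11 without Nes-GFP tail replicate 1) and *Dkk3*, a secreted glycoprotein of the Dickkopf family, by 3.97. *Bmp2* rested on 0 and 3 counts in the Nes-GFP tail lines. *Sfrp1*, a secreted Wnt antagonist, was lower at 63.8 and 65 cpm in the Nes-GFP lines and 26.6, 27.3 and 26.2 cpm in the Wnt1-Cre-mTmG lines, and the ligand *Wnt5a*, described with the caudal genes, was also lower. The receptors *Bmpr1a* and *Fzd3* and the BMP target *Id3* were not called.

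Hox genes differed between the groups in all 4 clusters, in a different pattern in each. HoxA genes from the anterior end of the cluster were lower in the Wnt1-Cre-mTmG tail lines and those from the posterior end were higher. Of 11 HoxA genes tested, 5 were lower, all between *Hoxa2* and *Hoxa6*, and 4 were higher, all between *Hoxa9* and *Hoxa13*. The shares were 45.5% lower and 36.4% higher, beside 6.66% and 15.8% of all tested genes. *Hoxa3*, a gene of hindbrain and neck level, was 18.6 and 18.7 cpm in the Nes-GFP lines and 3.65, 2.86 and 3.22 cpm in the Wnt1-Cre-mTmG lines. *Hoxa5*, of cervical level, was 21 and 22.1 cpm in the Nes-GFP lines and 4.81, 4.31 and 4.76 cpm in the Wnt1-Cre-mTmG lines, a log2 fold change of -2.22 ± 0.10 (adjusted p = 1.05e-33). *Hoxa2*, *Hoxa4* and *Hoxa6* were lower, with log2 fold changes of -2.27, -2.31 and -2.15. *Hoxa7* was not called, at -0.79, but was called with limma on quantile-normalized values.

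At the posterior end *Hoxa10*, a gene of lumbar level, was 6.3 and 7.6 cpm in the Nes-GFP lines and 45, 47.3 and 48.1 cpm in the Wnt1-Cre-mTmG lines, and *Hoxa9*, of thoracic level, was 0.511 and 1.1 cpm in the Nes-GFP lines and 22.1, 23.9 and 23.3 cpm in the Wnt1-Cre-mTmG lines. *Hoxa13*, of the tail and the limb tip, was at 0.284 and 0.35 cpm in the Nes-GFP lines and 10.2, 8.02 and 9.97 cpm in the Wnt1-Cre-mTmG lines, which is 29.6-fold. *Hoxa11* had no count in either Nes-GFP tail library and 6.42, 6.7 and 6.55 cpm in the others, at least 40.9-fold higher. The libraries of the groups did not overlap for any of these 4 genes. All of them were at or under the floor in the brain lines of both experiments.

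Every tested HoxB gene was higher in the Wnt1-Cre-mTmG tail lines, 9 of 9, beside 15.8% of all tested genes. *Hoxb8* was 5.28 and 5.75 cpm in the Nes-GFP lines and 82.8, 85.9 and 86.1 cpm in the Wnt1-Cre-mTmG lines, log2 fold change 3.94 ± 0.08 (adjusted p = 7.25e-57). *Hoxb9*, of lower trunk level, was 26.6 and 23.7 cpm in the Nes-GFP lines and 82.7, 82.6 and 82.7 cpm in the Wnt1-Cre-mTmG lines. *Hoxb13*, of tail level, was 9.77 and 8.75 cpm in the Nes-GFP lines and 50.8, 52.1 and 54.2 cpm in the Wnt1-Cre-mTmG lines. Both groups thus expressed the posterior end of this cluster, while from *Hoxb4* to *Hoxb7* the Nes-GFP tail lines were below 1 cpm. *Hoxb4* was 0.625 and 0.70 cpm in the Nes-GFP lines and 7.18, 7.6 and 9.67 cpm in the Wnt1-Cre-mTmG lines. *Hoxb7* was 0.284 and 0.25 against 12.9, 12.4 and 12.9 cpm, and *Hoxb6* was at 0 in both Nes-GFP tail libraries against 9.85, 10.6 and 9.62 cpm, at least 62.7-fold. *Hoxb5* had 1 and 1 counts in the Nes-GFP tail lines, a count ratio of 71.9 (95% counting interval 19.7 to 597). *Hoxb2* and *Hoxb3* were higher by 3.06 and 3.40 log2 (2.41 for *Hoxb2* without Nes-GFP tail replicate 1, and 4.36 and 4.19 without replicate 2), and *Hoxb1* had no count. HoxA and HoxB thus did not move as one block, since *Hoxa5* was lower where *Hoxb4* and *Hoxb7* were higher.

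HoxC genes were almost absent from the Nes-GFP tail lines and low in the Wnt1-Cre-mTmG tail lines. *Hoxc13* stood at 1.65, 1.78 and 1.18 cpm against 0.0568 and 0 cpm and *Hoxc11* at 1.03, 1.41 and 1.07 cpm against 0 in both Nes-GFP tail libraries, at least 7.3-fold. All 5 HoxC genes tested, *Hoxc9* to *Hoxc13*, were called higher, beside 15.8% of all tested genes, while *Hoxc4*, *Hoxc5*, *Hoxc6* and *Hoxc8* had too few counts to test. With at most 1 count of each tested HoxC gene in a Nes-GFP tail library, these differences are between a low level and a level not detectable at this depth.

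In the HoxD cluster the differences were at the ends of its expressed stretch, with 3 of 6 tested genes higher and none lower (50% and 0%, beside 15.8% and 6.66% of all tested genes). *Hoxd8* and *Hoxd9*, of trunk level, were not called. *Hoxd8* was 41.2 and 41.8 cpm in the Nes-GFP lines and 38.6, 39.5 and 40.0 cpm in the Wnt1-Cre-mTmG lines. *Hoxd9* was 19.9 and 20.9 cpm in the Nes-GFP lines and 24.8, 24.9 and 25.9 cpm in the Wnt1-Cre-mTmG lines, and no library of one group lay in the range of the other although the levels were close. *Hoxd10* was 4.49 and 4.55 cpm in the Nes-GFP lines and 19.3, 20.4 and 20.3 cpm in the Wnt1-Cre-mTmG lines, log2 fold change 2.14 ± 0.11, and *Hoxd11*, of sacral level, was 9.63, 10.2 and 10.4 cpm against 0.17 and 0 cpm. *Hoxd3* was higher by 1.37 log2 and *Hoxd4* by 0.85, which did not reach the limit. *Hoxd1*, *Hoxd12* and *Hoxd13* had too few counts to test. HoxD genes stayed at or under the floor in all 5 brain libraries, as did HoxC genes. HoxA genes up to *Hoxa7* were expressed in the Nes-GFP brain lines (15.1 and 17.5 cpm for *Hoxa5*) and were lower in the Wnt1-Cre-mTmG brain lines (1.09, 0.792 and 0.862 cpm). The fall of *Hoxa5* was smaller in the tail than in the brain comparison, by 1.92 ± 0.25 log2 (adjusted p = 3.40e-10).

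**Figure D3:**
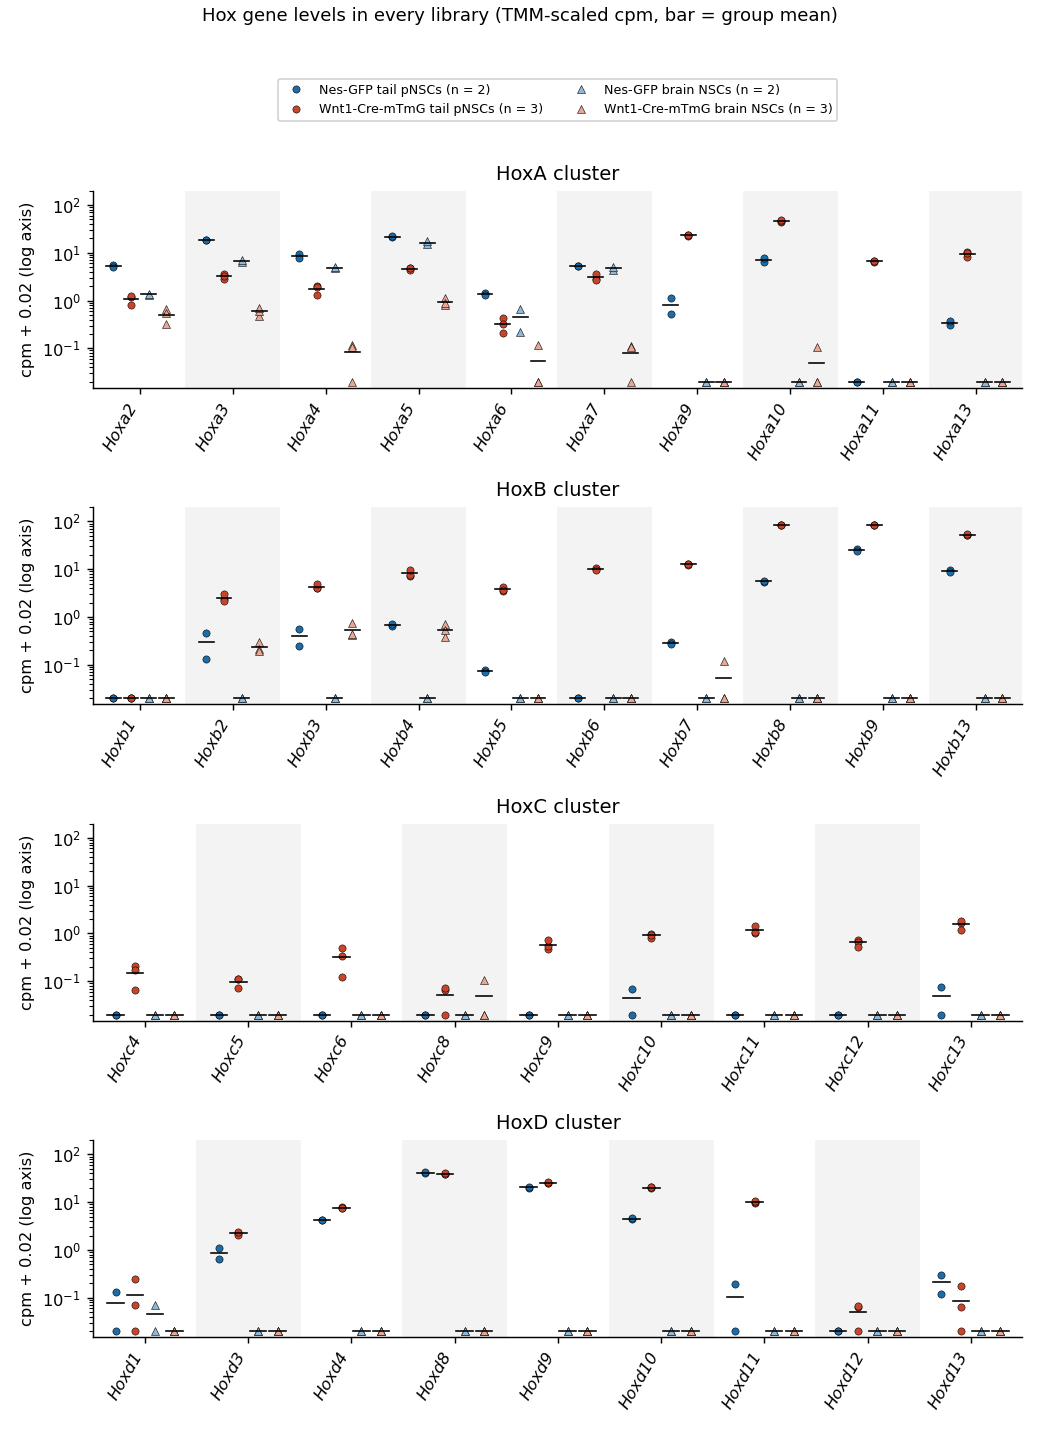
Levels of 38 Hox genes of the 4 clusters in every library (TMM-scaled cpm plus 0.02, log axis), ordered from the anterior to the posterior end of each cluster; points are libraries and bars are group means. *Hoxa2* to *Hoxa6* are lower and *Hoxa9* to *Hoxa13*, all tested HoxB genes and *Hoxd10* and *Hoxd11* are higher in the Wnt1-Cre-mTmG tail lines, and *Hoxd8* and *Hoxd9* lie close together.

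Genes of the embryonic tail bud, the source of the tail's spinal cord and mesoderm, were mostly undetected, and of 5 tested 2 were higher and 1 lower (40% and 20%, beside 15.8% and 6.66% of all tested genes). *Cdx1*, *Cdx2*, *Cdx4* and *Wnt3a* had no count in any tail library, and *Evx1*, *Evx2*, *Nkx1-2*, *Sp5*, *Cyp26a1*, *Lin28a*, *Lin28b*, *Fgf8* and *Fgf17* were too low to test. *T*, which encodes Brachyury, was 1.59 and 1.6 cpm in the Nes-GFP lines and 3.7, 3.99 and 3.43 cpm in the Wnt1-Cre-mTmG lines and was higher by 1.21 log2, with a brain difference of 1.17. *Wnt5a*, a ligand that guides axis elongation and neural tube growth, was lower at 180.4 and 185 cpm in the Nes-GFP lines and 74.9, 72.6 and 76.1 cpm in the Wnt1-Cre-mTmG lines, log2 fold change -1.29 ± 0.03 (adjusted p = 8.96e-51). The brain lines overlapped, at 206 and 192 against 193, 193 and 190.4 cpm. *Hes7*, a clock gene of somite formation, was called higher on at most 16 counts in a tail library, a call lost under most alternatives, DESeq2 and the fits without either Nes-GFP tail library among them. *Gdf11*, a signal for posterior identity, and *Tbx6*, a mesodermal factor, were not called (0.28 and 0.44 log2).

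Several forebrain factors present in the Nes-GFP tail lines were lower in the Wnt1-Cre-mTmG tail lines. Of 12 tested, 5 were lower and 1 was higher (41.7% and 8.33%, beside 6.66% and 15.8% of all tested genes). *Lhx2*, a LIM factor of eye and cortex, was at 37.4 and 40.8 cpm in the Nes-GFP lines and 3.48, 3.09 and 3.38 cpm in the Wnt1-Cre-mTmG lines, while both brain groups expressed it, at 37.3 and 36.5 against 63.9, 68.8 and 62.7 cpm. The Nes-GFP tail lines held a level like that of their brain lines, and the Wnt1-Cre-mTmG tail lines were 11.8-fold below the Nes-GFP tail lines (log2 fold change -3.56 ± 0.09, adjusted p = 1.08e-50). *Emx2*, a factor of dorsal forebrain, was 4.54 and 5.25 cpm in the Nes-GFP lines and 0.0891, 0.0469 and 0.0511 cpm in the Wnt1-Cre-mTmG lines. *Otx1* was 0.681 and 0.95 cpm against 0 in all 3 Wnt1-Cre-mTmG tail libraries, at least 5.72-fold lower. *Otx2* and *Six3*, defining genes of the forebrain, had no count in any tail library. *Sp8*, a zinc finger factor of forebrain and of limb and tail outgrowth, was higher at 1.82 and 1.85 cpm in the Nes-GFP lines and 47.9, 47.3 and 49.2 cpm in the Wnt1-Cre-mTmG lines. *Dlx1* was called lower on 8 and 3 counts in the Nes-GFP tail lines, but not without the first of these libraries. *Nr2e1*, a nuclear receptor of adult NSCs, was at or under the floor in the tail lines, and *Dlx2* was not called except with limma on quantile-normalized values. *Nkx2-1*, *Six6*, *Emx1*, *Lhx6* and *Fezf2* had at most 2 counts in a tail library, *Rax* at most 5, and *Gsx2* was too low to test.

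Of 12 midbrain and hindbrain factors tested, the called ones were the neighbouring genes *Irx3* and *Irx5*, both lower (16.7%, beside 6.66% of all tested genes). *Irx3*, a homeobox gene of hindbrain and spinal cord, was 16.2 and 17.5 cpm in the Nes-GFP lines and 2.59, 2.77 and 2.15 cpm in the Wnt1-Cre-mTmG lines, log2 fold change -2.75 ± 0.12 (adjusted p = 5.80e-34). *Irx5*, its neighbour (chr8:91798525-91802067 and chr8:92357625-92376286, GRCm38), was 18.3 and 17.6 cpm in the Nes-GFP lines and 1.43, 2.34 and 1.64 cpm in the Wnt1-Cre-mTmG lines. Both brain groups expressed *Irx3*, at 11.1 and 11.9 against 7.84, 9.21 and 10.9 cpm, and the tail minus brain differences were -2.45 log2 for *Irx3* and -2.92 for *Irx5*. Of the other Iroquois genes *Irx1* and *Irx2* were not called, with 0.81 and -0.12. *En1*, *En2*, *Gbx2*, *Egr2*, *Meis1* and *Meis2* were not called either, with log2 fold changes from -0.61 for *Egr2* to 0.97 for *En1*, which passed the limit in some alternatives, and *Pax2*, *Pax5* and *Pax8* had at most 2 counts in a tail library.

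Along the dorsal to ventral axis of the neural tube, 5 of 10 intermediate and ventral genes tested were higher and 1 was lower (50% and 10%, beside 15.8% and 6.66% of all tested genes). *Dbx2*, a homeobox gene of the intermediate domain, was 43.8 and 40.7 cpm in the Nes-GFP lines and 264, 266 and 265 cpm in the Wnt1-Cre-mTmG lines, 6.27-fold higher (log2 fold change 2.65 ± 0.04, adjusted p = 2.73e-69). The related *Dbx1* was lower, at 1.02 and 1.05 cpm in the Nes-GFP lines and 0.0446, 0.0938 and 0.102 cpm in the Wnt1-Cre-mTmG lines. *Nkx2-2*, a Sonic hedgehog-induced factor of the ventral tube and of oligodendrocyte precursors, was 2.78 and 2.4 cpm in the Nes-GFP lines and 15, 15.7 and 12.6 cpm in the Wnt1-Cre-mTmG lines. *Nkx6-1*, a ventral factor, was expressed in both tail groups (71.3 and 73.4 cpm in the Nes-GFP lines and 90.7, 92.6 and 93.2 cpm in the Wnt1-Cre-mTmG lines) and not called, and was close to 0 in both brain groups (0 and 0 against 0.73, 0.495 and 0.517 cpm). *Nkx6-2* was higher by 1.56 log2. Of the hedgehog pathway the target *Hhip* was 4.26 and 4.2 cpm in the Nes-GFP lines and 14.1, 15.8 and 15 cpm in the Wnt1-Cre-mTmG lines and was called, the receptor *Ptch1* was 189 and 192 cpm in the Nes-GFP lines and 379, 384 and 373 cpm in the Wnt1-Cre-mTmG lines with a log2 fold change of 0.99 that did not reach the limit but did with upper quartile scaling, and *Gli1* was not called. *Shh*, the ligand, was called higher at a low level, 0.397 and 0.45 cpm in the Nes-GFP lines and 0.936, 1.27 and 0.665 cpm in the Wnt1-Cre-mTmG lines, but not without Nes-GFP tail replicate 1 or Wnt1-Cre-mTmG tail replicate 2. *Foxa1* and *Prdm12* had no count in the tail lines, and *Foxa2* and *Nkx2-9* were too low to test.

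Of 9 dorsal factors tested, 4 were higher and 2 were lower (44.4% and 22.2%, beside 15.8% and 6.66% of all tested genes), most at low levels. *Lmx1b*, of dorsal interneurons, was 3.18 and 2.7 cpm in the Nes-GFP lines and 0.223, 0.0938 and 0.102 cpm in the Wnt1-Cre-mTmG lines, and *Pax7*, of the dorsal tube and of muscle precursors, was 2.95 and 1.8 against 0.0446, 0 and 0 cpm, a Nes-GFP over Wnt1-Cre-mTmG count ratio of 148 (95% counting interval 25.9 to 5918). *Zic1*, a dorsal and cerebellar factor, was at 0 in both Nes-GFP tail libraries and 0.847, 0.469 and 1.07 cpm in the others, at least 4.97-fold, while in brain lines it was 81.3 and 77.2 against 5.75, 3.96 and 4.74 cpm. The called differences of *Zic4* and *Gsx1* rested on at most 4 and 6 counts in a tail library, and that of *Zic4* was lost without either Nes-GFP tail library and changed sign with limma on quantile-normalized values. *Zic2*, *Zic5* and *Msx1* were not called. *Pax3*, *Msx2*, *Msx3*, *Lmx1a*, *Olig3*, *Gdf7* and *Atoh1* were too low to test.

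Sterol synthesis differed in 1 direction. All 14 genes of the cholesterol synthesis list were lower in the Wnt1-Cre-mTmG tail lines, against 6.66% of all tested genes, with a median log2 fold change of -2.64. None was called in the brain comparison, where the median was -0.45 and 3.74% of all tested genes were lower. In the test of tail against brain differences 13 of 14 were called lower, beside 8.15% of all tested genes, *Srebf2* being the exception. *Idi1*, isopentenyl diphosphate isomerase, was 65.5 and 68.3 cpm in the Nes-GFP lines and 3.97, 4.31 and 5.37 cpm in the Wnt1-Cre-mTmG lines, 14.7-fold lower (log2 fold change -3.89 ± 0.08, adjusted p = 3.50e-57). In the brain lines it was 64.5 and 56.6 against 41, 47.6 and 43.9 cpm. *Fdps*, farnesyl diphosphate synthase, was 19.8 and 19.4 cpm in the Nes-GFP lines and 1.56, 1.83 and 1.74 cpm in the Wnt1-Cre-mTmG lines. The mouse genome holds processed copies of *Fdps*, so its level is uncertain where reads were shared.

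The early enzyme *Hmgcs1* and the master factor *Srebf2*, chosen for mention after their values were seen, were also lower. *Hmgcs1*, HMG-CoA synthase, was 1388 and 1409.8 cpm in the Nes-GFP lines and 214, 209 and 208 cpm in the Wnt1-Cre-mTmG lines. *Srebf2*, which encodes SREBP2, was 599.9 and 602 cpm in the Nes-GFP lines and 265, 267 and 265 cpm in the Wnt1-Cre-mTmG lines, the smallest difference of the list. A second list of 11 sterol genes, written after values were seen, held 10 lower and 1 higher (90.9% and 9.09%, beside 6.66% and 15.8% of all tested genes). *Nsdhl*, *Acat2*, *Stard4* and *Msmo1*, which act in sterol synthesis and transport, had log2 fold changes of -3.03, -2.88, -2.83 and -2.79.

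Fatty acid synthesis, driven in part by the related SREBP1, went partly with sterol synthesis. Of 12 genes listed after values were seen, 4 were lower and 1 higher (33.3% and 8.33%, beside 6.66% and 15.8% of all tested genes). *Fasn*, fatty acid synthase, was 1095 and 1115 cpm in the Nes-GFP lines and 269.7, 278 and 274 cpm in the Wnt1-Cre-mTmG lines, and *Elovl6*, an elongase, was 299 and 312 cpm in the Nes-GFP lines and 66.5, 68.5 and 63.1 cpm in the Wnt1-Cre-mTmG lines. *Acly* and *Scd1*, which supply acetyl-CoA and desaturate stearate, were lower, with log2 fold changes of -1.54 and -1.38, while the desaturases *Scd2*, *Fads1* and *Fads2* were not called and *Acacb* was higher by 1.39.

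Genes that export cholesterol, targets of the sterol-activated receptors LXR, were higher in the Wnt1-Cre-mTmG lines of both tissues. *Apoe*, the main lipoprotein of neural cells, was 7.66 and 6.7 cpm in the Nes-GFP lines and 187, 185 and 187 cpm in the Wnt1-Cre-mTmG lines, and in brain lines 44.2 and 44.5 against 207, 228 and 217 cpm. *Abca1*, a cholesterol exporter, was 6.47 and 6.6 cpm in the Nes-GFP lines and 50.2, 54.6 and 51.9 cpm in the Wnt1-Cre-mTmG lines, with brain values of 20.8 and 23.8 against 106, 104 and 106 cpm. The differences of *Abca1* were 3.00 log2 in the tail and 2.24 in the brain, and that of *Apoe* was larger in the tail by 2.41 ± 0.09 (adjusted p = 2.47e-40). *Abcg1* and *Nr1h3*, which encode another exporter and LXRα, were higher by 4.00 and 2.30 (4.60 for *Abcg1* without Nes-GFP tail replicate 1 and 3.17 for *Nr1h3* without replicate 2). Of 7 genes listed after values were seen, these 4 were called, all higher in tail and in brain, and *Nr1h2*, *Lpcat3* and *Mylip* were not called in the tail. In the tail this is 57.1%, beside 15.8% of all tested genes, and in the brain 10.5% of all tested genes were higher. Sterol synthesis genes were thus called in the tail and not in the brain comparison of these experiments, and the 4 export genes in both. Low sterol synthesis was not particular to tail lines. The cholesterol synthesis list summed in plain cpm to 5112 to 5128 in Nes-GFP and 1059 to 1079 in Wnt1-Cre-mTmG tail lines. It summed to 5491 to 5517 and 4331 to 4353 in their brain lines, and to 2050 to 2062 in another brain group of the series, labelled Sox2-GFP brain NSCs.

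Amino acid and stress genes linked to ATF4 were the counterpart on the higher side. Of 14 immediate early and stress genes tested, *Chac1*, *Trib3*, *Atf3*, *Ddit3* and *Asns* were higher and *Hspa5* was lower (35.7% and 7.14%, beside 15.8% and 6.66% of all tested genes). A list of 37 amino acid and ATF4-linked genes was then written after values were seen. Of these 37, 36 were higher and none lower (97.3% and 0%, beside 15.8% and 6.66% of all tested genes), with a median log2 fold change of 2.32. *Psat1*, phosphoserine aminotransferase, was the member not called (632 and 648 cpm in the Nes-GFP lines and 988, 980.2 and 994 cpm in the Wnt1-Cre-mTmG lines, 0.63 log2). In the brain comparison 3 were higher (*Slc7a11*, *Cbs* and *Aldh1l2*) and 2 lower (*Slc7a5* and *Trib3*, median -0.13), beside 10.5% and 3.74% of all tested genes. In the test of tail against brain differences 33 of 37 were called higher, beside 10.9% of all tested genes. Since the list was written with values in view, its count describes these samples and is no independent evidence. The list summed in plain cpm to 3730 to 3808 in Nes-GFP and 13431 to 13644 in Wnt1-Cre-mTmG tail lines. Their brain lines held 3443 to 3488 and 3094 to 3131, and the Sox2-GFP brain NSCs held 8288 to 8387.

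*Chac1*, which breaks down glutathione, was 2.38 and 2.7 cpm in the Nes-GFP lines and 172, 173 and 176 cpm in the Wnt1-Cre-mTmG lines, 68.2-fold higher (log2 fold change 6.08 ± 0.07, adjusted p = 9.83e-74). Both brain groups stayed near the Nes-GFP tail level, at 1.78 and 1.52 against 1.64, 1.29 and 1.55 cpm. *Trib3*, a pseudokinase induced by ATF4, was 1.87 and 1.6 cpm in the Nes-GFP lines and 102, 103 and 106 cpm in the Wnt1-Cre-mTmG lines, and *Ddit3*, which encodes the stress factor CHOP, was 7.15 and 8.25 cpm in the Nes-GFP lines and 79.9, 79.7 and 83.4 cpm in the Wnt1-Cre-mTmG lines. *Atf3*, a stress-induced partner of CHOP, was 0.795 and 0.95 cpm in the Nes-GFP lines and 14.9, 13.3 and 14.1 cpm in the Wnt1-Cre-mTmG lines. *Nupr1*, a chromatin protein of the stress response, was 0.852 and 0.85 cpm in the Nes-GFP lines and 32.6, 31 and 34.5 cpm in the Wnt1-Cre-mTmG lines, and *Cbs*, which channels homocysteine into cysteine, was 2.27 and 3.25 cpm in the Nes-GFP lines and 105, 101 and 107 cpm in the Wnt1-Cre-mTmG lines. *Cbs* was the one of these also called higher in the brain comparison, at 21.4 and 22.2 against 56.4, 59.1 and 58.2 cpm.

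Further members were chosen after their values were seen, to cover each step of the response. *Atf4* mRNA itself was 206 and 208 cpm in the Nes-GFP lines and 450.2, 444 and 448 cpm in the Wnt1-Cre-mTmG lines, a 2.16-fold difference, smaller than that of most of its linked genes. *Asns*, asparagine synthetase, was 76.9 and 88 cpm in the Nes-GFP lines and 664, 649.8 and 673 cpm in the Wnt1-Cre-mTmG lines, log2 fold change 3.00 ± 0.03 (adjusted p = 1.72e-75). *Slc7a11*, the cystine importer, was 13 and 11.5 cpm in the Nes-GFP lines and 90.2, 89.5 and 87.8 cpm in the Wnt1-Cre-mTmG lines and was also higher in Wnt1-Cre-mTmG brain lines (16.3 and 13.1 against 39.7, 43.8 and 39.5 cpm). *Slc7a5*, the transport chain of the large neutral amino acid transporter, was 269.5 and 274 cpm in the Nes-GFP lines and 1691, 1668 and 1688 cpm in the Wnt1-Cre-mTmG lines. *Slc3a2*, its partner chain, was 142 and 142 cpm in the Nes-GFP lines and 1037, 1008 and 1041 cpm in the Wnt1-Cre-mTmG lines. *Slc7a5* was lower in the Wnt1-Cre-mTmG brain lines than in the Nes-GFP ones (log2 fold change -1.07), opposite to the tail. *Phgdh* and *Shmt2*, of serine and one-carbon synthesis, were higher by 1.15 and 1.89 log2, and *Sesn2* and *Ddit4*, which restrain the growth kinase mTORC1, by 1.37 and 1.25.

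Promoter sequence is shown for genes of both sets, because ATF4 and SREBP2 act through short elements near start sites. The 250 bases before the start of each gene were taken from RefSeq (build GRCm38.p6), on the strand of the gene. The core TGATGNAA of the ATF4 response element, searched on both strands, is in capitals in the first 3 and the sterol element TCACCCCAC, searched on both strands, in the last. The regions are chr2:119350992-119351241 (plus strand) for *Chac1*, chr6:7693210-7693459 (minus strand) for *Asns*, chr3:50443614-50443863 (minus strand) for *Slc7a11* and chr13:119690101-119690350 (plus strand) for *Hmgcs1*.
Chac1: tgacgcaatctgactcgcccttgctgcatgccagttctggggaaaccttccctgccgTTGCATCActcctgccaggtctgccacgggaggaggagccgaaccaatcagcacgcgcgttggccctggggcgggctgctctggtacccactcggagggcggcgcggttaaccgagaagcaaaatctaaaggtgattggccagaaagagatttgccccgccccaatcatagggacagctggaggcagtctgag
Asns: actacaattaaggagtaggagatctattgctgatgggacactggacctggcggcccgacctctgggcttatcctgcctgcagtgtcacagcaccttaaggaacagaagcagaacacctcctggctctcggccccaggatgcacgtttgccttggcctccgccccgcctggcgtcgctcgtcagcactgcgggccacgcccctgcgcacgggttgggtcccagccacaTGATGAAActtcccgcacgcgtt
Slc7a11: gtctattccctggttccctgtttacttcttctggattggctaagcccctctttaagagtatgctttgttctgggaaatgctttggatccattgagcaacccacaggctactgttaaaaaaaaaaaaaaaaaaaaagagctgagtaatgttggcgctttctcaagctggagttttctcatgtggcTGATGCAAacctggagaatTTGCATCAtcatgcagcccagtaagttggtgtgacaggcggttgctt
Hmgcs1: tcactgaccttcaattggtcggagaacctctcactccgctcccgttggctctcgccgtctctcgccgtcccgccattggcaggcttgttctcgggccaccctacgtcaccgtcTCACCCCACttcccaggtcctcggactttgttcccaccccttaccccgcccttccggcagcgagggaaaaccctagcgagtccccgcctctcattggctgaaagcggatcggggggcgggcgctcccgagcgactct
*Slc7a11* holds 2 matches, on opposite strands, and the other genes 1 each. Of the 37 ATF4-linked genes, 31 matched the RefSeq table and 11 of these (35.5%) held TGATGNAA in these 250 bases, namely *Aars*, *Asns*, *Atf3*, *Chac1*, *Fgf21*, *Gars*, *Nupr1*, *Pck2*, *Pycr1*, *Slc7a11* and *Vldlr*, against 3.91% of all 27025 genes of the table. TCACCCCAC was found in 1 of 17 matched genes of the 25 in both sterol lists (5.88%), *Hmgcs1*, against 0.555% of all genes. A match is a string of letters and not a measured binding site. The first list was assembled as ATF4-linked after values were seen, so its higher share could follow from how it was made. *Hmgcs1* is shown because it is the 1 sterol gene with a match. Neither share is independent evidence, and the part of ATF4 or SREBP2 in these differences was not tested.

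Chaperones of the endoplasmic reticulum, which the unfolded protein response can induce beside ATF4, were mostly not called. Of 18 listed after values were seen, 1 was higher and 4 were lower (5.56% and 22.2%, beside 15.8% and 6.66% of all tested genes). *Hspa5*, which encodes the chaperone BiP, was 731 and 724 cpm in the Nes-GFP lines and 284, 277 and 284 cpm in the Wnt1-Cre-mTmG lines, log2 fold change -1.37 ± 0.02 (adjusted p = 3.09e-63), and was not called between brain groups (682 and 675 against 719, 706 and 711 cpm). *Calr*, *Sdf2l1* and *Edem1*, of protein folding and disposal, were lower, with log2 fold changes of -1.27, -2.28 and -1.05. *Herpud1*, of endoplasmic reticulum-associated breakdown, was the member called higher, at 16.2 and 19 cpm in the Nes-GFP lines and 67.5, 69.2 and 67.5 cpm in the Wnt1-Cre-mTmG lines. *Canx*, *Hsp90b1* and *Pdia3* were not called. Among immediate early genes *Jun*, *Egr1* and *Ier2* were not called, with log2 fold changes of 0.20, -0.85 and 0.84.

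**Figure D4:**
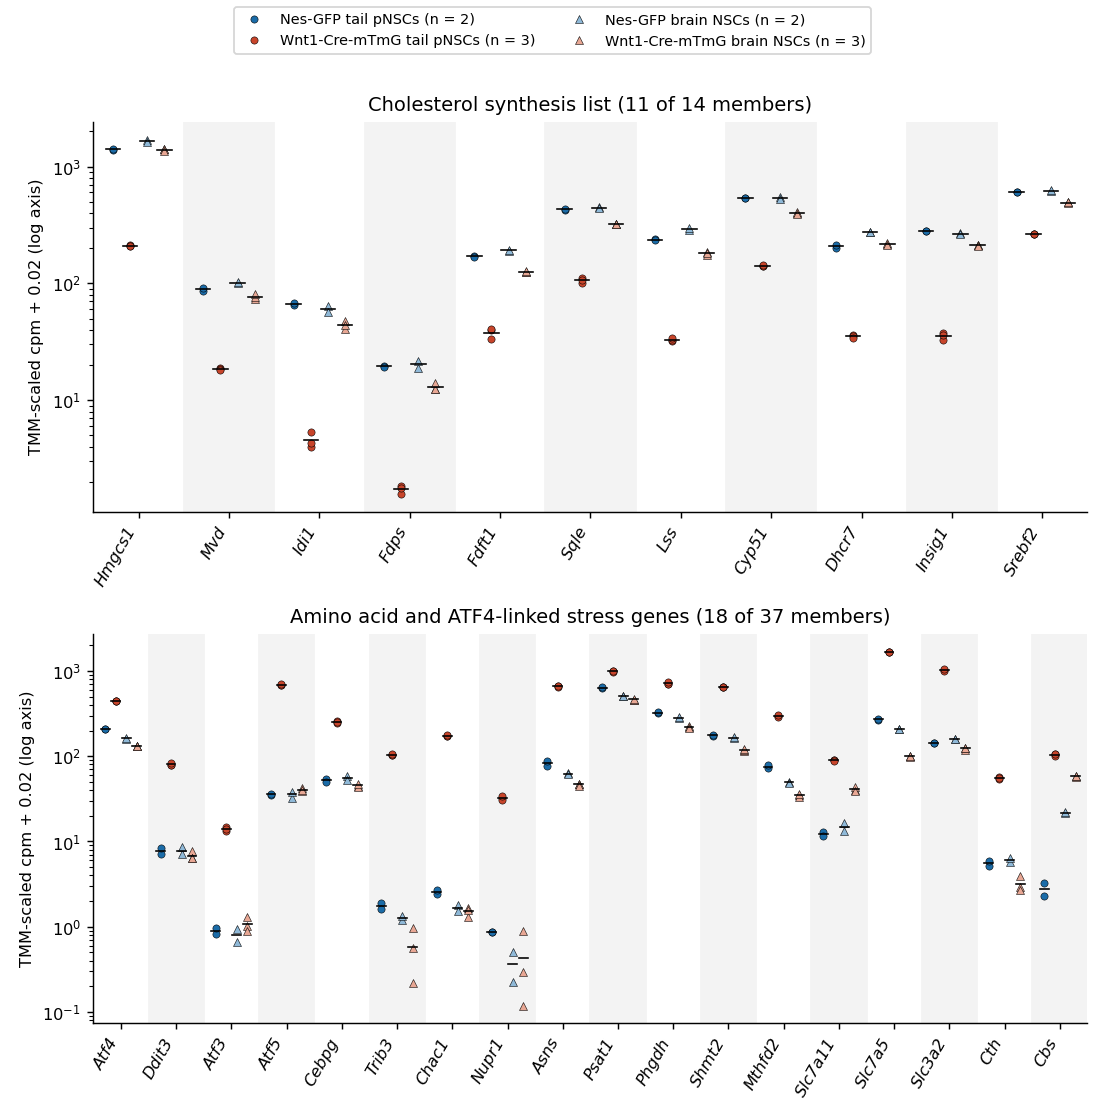
Levels of 11 of the 14 cholesterol synthesis genes (top) and of 18 amino acid and ATF4-linked genes (bottom) in every library (TMM-scaled cpm plus 0.02, log axis); points are libraries and bars are group means. The 3 Wnt1-Cre-mTmG tail libraries lie below all others for every sterol gene shown and above the other tail libraries for every stress gene, while both brain groups lie nearer to the Nes-GFP tail lines for most genes.

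Part of the cell cycle genes were lower in the Wnt1-Cre-mTmG tail lines. Of 20 tested, 8 were lower and 0 higher (40% and 0%, beside 6.66% and 15.8% of all tested genes), and the median log2 fold change was -0.87. *Mki67*, which encodes the proliferation antigen Ki67, was 983 and 949 cpm in the Nes-GFP lines and 407, 412 and 386 cpm in the Wnt1-Cre-mTmG lines, log2 fold change -1.26 ± 0.02 (adjusted p = 2.44e-60). *Ccnd1*, cyclin D1 of the first gap phase, was 897 and 890.4 cpm in the Nes-GFP lines and 328, 334 and 323 cpm in the Wnt1-Cre-mTmG lines, and *Ccne1*, cyclin E1 of the entry into DNA synthesis, was 45.6 and 48.1 cpm in the Nes-GFP lines and 13.1, 13.6 and 12.1 cpm in the Wnt1-Cre-mTmG lines. In the brain lines *Ccnd1* was higher in the Wnt1-Cre-mTmG group (718 and 733 against 1465, 1498 and 1476 cpm), opposite to the tail (tail minus brain difference -2.47 ± 0.03, adjusted p = 4.08e-72). *Mcm6*, of the replicative helicase, was lower, with a log2 fold change of -1.09. *Ccnd2*, *Top2a* and *Mcm2* were not called, at -0.19, -0.68 and -0.59. The list summed in plain cpm to 6576 to 6610.5 in Nes-GFP and 3883 to 3945 in Wnt1-Cre-mTmG tail lines. Their brain lines held 5761 to 5780 and 6699 to 6786, and the Sox2-GFP brain NSCs held 2480 to 2496. In bulk RNA fewer cells of a kind and less RNA per cell cannot be told apart, here and for every gene described.

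Inhibitors of the cycle and targets of p53 were called higher in 3 and lower in 2 of 14 cases (21.4% and 14.3%, beside 15.8% and 6.66% of all tested genes). *Cdkn1c*, an imprinted inhibitor of cyclin-dependent kinases, was 0.625 and 0.55 cpm in the Nes-GFP lines and 18.8, 18.8 and 19.9 cpm in the Wnt1-Cre-mTmG lines, a 32.7-fold difference. In brain lines it was not called (1.07 and 0.686 against 1.0, 1.09 and 1.55 cpm, tail minus brain difference 4.53 ± 0.46, adjusted p = 1.45e-14). *Cdkn2b*, the inhibitor p15, was 7.61 and 8.65 cpm in the Nes-GFP lines and 24.9, 22.6 and 23.3 cpm in the Wnt1-Cre-mTmG lines and was higher in the brain too. *Cdkn1a*, the p53-induced inhibitor p21, was not called at 447 and 452 cpm in the Nes-GFP lines and 272, 270.2 and 276 cpm in the Wnt1-Cre-mTmG lines, nor were *Cdkn1b* and the apoptosis gene *Bax* (0.79 and -0.94 log2), *Bax* being called without 1 of the Wnt1-Cre-mTmG tail libraries. *Ccng1* and *Trp53inp1*, both p53 targets, were lower, with log2 fold changes of -1.24 and -1.36.

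Matrix genes of mesenchyme were 7 of the 12 largest rises among all genes with at least 10 cpm in the higher group. Of 14 fibroblast and mesenchyme markers tested, 11 were higher and none lower (78.6% and 0%, beside 15.8% and 6.66% of all tested genes). In the brain comparison 10 were higher and 1 (*Acta2*) lower, beside 10.5% and 3.74% of all tested genes. *Col3a1*, a fibrillar collagen, was 0.284 and 0.10 cpm in the Nes-GFP lines and 198, 194 and 192 cpm in the Wnt1-Cre-mTmG lines, resting on 5 and 2 counts in the Nes-GFP lines. *Col1a2*, of type I collagen, was 0 and 0.050 cpm in the Nes-GFP lines and 67.6, 69.7 and 67.8 cpm in the Wnt1-Cre-mTmG lines, a count ratio of 2572 (95% counting interval 461 to 101606). *Postn*, a matrix protein of mesenchyme, was 0.114 and 0 cpm in the Nes-GFP lines and 96.4, 95.8 and 95 cpm in the Wnt1-Cre-mTmG lines, and *Pdgfrb*, a receptor of pericytes and fibroblasts, was at 0 in both Nes-GFP tail libraries and 9.05, 9.05 and 8.85 cpm in the others, at least 56.1-fold. In the brain lines *Col3a1* was 0 and 0.049 cpm and 4.47, 4.85 and 3.53 cpm, so the direction was the same at a lower level. *Fn1*, *Acta2* and *Tagln*, which also occur in mesenchyme, were not called (0.40, -0.11 and 0.07 log2). Summed over the 15 markers in plain cpm, the level was 173 to 174 in Nes-GFP tail lines, 745 to 765 in Wnt1-Cre-mTmG tail lines, 104 to 108 and 129 to 135 in the brain lines, and 69333 to 70459 in the 2 libraries of the series labelled Tail, which hold tail cells that were not grown as pNSCs. The part of mesenchymal cells in the other differences was not tested.

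A list of collagens and matrix genes, written after values were seen, held 10 higher and 1 lower of 16 (62.5% and 6.25%, beside 15.8% and 6.66% of all tested genes). *Bgn*, a small proteoglycan, had no count in either Nes-GFP tail library and 20.4, 21.7 and 22 cpm in the others, at least 133-fold. *Col6a1*, *Col6a2* and *Col6a3*, the chains of the microfibril collagen VI, averaged 43.4, 47.8 and 85.4 cpm in the Wnt1-Cre-mTmG tail lines and at most 0.11 cpm in the Nes-GFP ones. *Col6a3* stayed low in brain lines, at 0.203 and 0.147 against 0.912, 1.09 and 1.47 cpm. *Igfbp3*, which binds insulin-like growth factors, was the member called lower, at 939.7 and 975 cpm in the Nes-GFP lines and 333, 322 and 324 cpm in the Wnt1-Cre-mTmG lines, and *Sparc*, *Fbn1* and *Igfbp4* were not called.

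Markers of other cells were low or absent. The leukocyte genes *Ptprc* and *Tyrobp* and the keratinocyte genes *Krt5* and *Krt14* had no count in any of the 10 libraries. The summed level of the endothelial and leukocyte list was 8.89 to 9.25 cpm in the Nes-GFP and 3.73 to 4.63 cpm in the Wnt1-Cre-mTmG tail lines, with *Cd68*, *Kdr* and *Tek* called lower, *Tek* not without Nes-GFP tail replicate 1 or Wnt1-Cre-mTmG tail replicate 2. The keratinocyte list summed to 21.1 to 23.3 and 13 to 13.8 cpm. *Krt10* was not called. *Lor*, which encodes loricrin, was lower at 14.3 and 13.1 cpm in the Nes-GFP lines and 3.39, 3.38 and 3.73 cpm in the Wnt1-Cre-mTmG lines, and *Krt1* was called higher on at most 6 counts in a tail library. The cartilage and muscle list summed to 2.36 to 3.53 and 0.653 to 0.887 cpm, and its one tested member was *Pax7*, which was lower.

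Neural crest and Schwann cell markers were tested because the Wnt1-Cre cross labels the crest lineage. *Sox10*, a defining factor of crest, Schwann cells and oligodendrocyte precursors, was 0.114 and 0.050 cpm in the Nes-GFP lines and 6.86, 7.74 and 7.36 cpm in the Wnt1-Cre-mTmG lines, a count ratio of 91.7 (95% counting interval 31.2 to 446), and the brain lines differed in the same way, at 0.0508 and 0.098 against 13.5, 15.1 and 15.8 cpm. *Ngfr*, the low-affinity neurotrophin receptor p75, was 0.341 and 0.30 cpm in the Nes-GFP lines and 3.61, 3.47 and 3.73 cpm in the Wnt1-Cre-mTmG lines and was 0.407 and 0.196 against 0.638, 0.495 and 0.517 cpm in brain lines. Of 12 tested, 5 were higher and 2 lower (41.7% and 16.7%, beside 15.8% and 6.66% of all tested genes). The list summed in plain cpm to 101 to 106 in Nes-GFP and 137 to 143 in Wnt1-Cre-mTmG tail lines. Both lay below their brain lines, at 160 to 163 and 187 to 187.4. The neural crest stem cells of dorsal root ganglia in the series, labelled DRG NCSCs, held 5813 to 5992. *Erbb3*, *Snai1* and *Dhh*, the last chosen after its values were seen, were higher at low levels, with at most 12, 13 and 21 counts in a tail library, *Dhh* not without Nes-GFP tail replicate 1. *Cdh19*, a cadherin of Schwann cell precursors, was lower at 1.14 and 0.65 cpm in the Nes-GFP lines and 0.357, 0.328 and 0.153 cpm in the Wnt1-Cre-mTmG lines. *Foxd3* and *Tfap2b*, early crest factors, had at most 2 counts in a tail library, and *Ets1*, *Pmp22* and *S100b* were not called.

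Markers of glial differentiation were in part higher. Of 11 oligodendrocyte lineage genes 6 were higher and none lower (54.5% and 0%, beside 15.8% and 6.66% of all tested genes). *Pdgfra*, the growth factor receptor of oligodendrocyte precursors, was 8.35 and 8.1 cpm in the Nes-GFP lines and 40.2, 41.2 and 42.4 cpm in the Wnt1-Cre-mTmG lines, and *Gpr17*, of cells about to differentiate, was 1.02 and 0.75 cpm in the Nes-GFP lines and 10.8, 10.6 and 12.1 cpm in the Wnt1-Cre-mTmG lines. The myelin gene *Mbp*, named after its values were seen, was called higher on at most 25 counts in a tail library. *Sox8*, *Bcas1* and *Cnp* were not called (0.42, -0.97 and 0.71 log2), and *Bcas1* passed the limit under several alternatives.

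Among astrocyte and radial glia genes, 6 of 16 were higher and none lower (37.5% and 0%, beside 15.8% and 6.66% of all tested genes). *Aqp4*, the water channel of astrocytes, was 0.511 and 0.50 cpm in the Nes-GFP lines and 58.9, 62 and 60.7 cpm in the Wnt1-Cre-mTmG lines, with brain values of 7.17 and 4.65 against 115, 118 and 114 cpm. *Slc1a2*, a glutamate transporter, was 53.5 and 49 cpm in the Nes-GFP lines and 336, 338 and 327 cpm in the Wnt1-Cre-mTmG lines and not called in the brain lines (211 and 205 against 213, 213 and 206 cpm). *Clu*, a secreted chaperone, was higher by 3.53 log2 in the tail and 1.98 in the brain. *Tnc*, *Slc1a3* and *Aldoc* were not called.

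Neuronal genes went both ways, with 7 higher and 3 lower of 14 (50% and 21.4%, beside 15.8% and 6.66% of all tested genes). *Dcx*, doublecortin of young neurons, was 0.795 and 0.15 cpm in the Nes-GFP lines and 23.4, 23 and 22.7 cpm in the Wnt1-Cre-mTmG lines. Both brain groups lay between, at 9.0 and 7.25 against 9.76, 9.9 and 9.91 cpm. *Elavl3*, a neuronal RNA-binding protein, was 1.53 and 1.75 cpm in the Nes-GFP lines and 16.9, 15.7 and 15.2 cpm in the Wnt1-Cre-mTmG lines. *Stmn2* and *Isl1*, of axon growth and of motor and sensory neurons, were called higher at low levels in the Wnt1-Cre-mTmG tail lines, with 0.579, 0.516 and 0.972 cpm of *Stmn2* and 1.11, 0.797 and 1.23 cpm of *Isl1*. *Syt1*, a calcium sensor of synaptic vesicles, was lower at 5.39 and 5.55 cpm in the Nes-GFP lines and 0.802, 0.797 and 0.409 cpm in the Wnt1-Cre-mTmG lines, as were *Gad1* and *Neurod1* (log2 fold changes -3.23 and -1.25). *Map2*, *Elavl4* and *Rbfox3* were not called.

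Imprinted genes, expressed from a single parental copy and often tied to growth, differed in both directions. Of 24 tested, 9 were higher and 3 lower (37.5% and 12.5%, beside 15.8% and 6.66% of all tested genes). *Grb10*, an inhibitor of insulin and growth factor receptors, was 9.65 and 11.7 cpm in the Nes-GFP lines and 597, 610.4 and 599 cpm in the Wnt1-Cre-mTmG lines, 56.4-fold higher (log2 fold change 5.81 ± 0.05, adjusted p = 2.44e-86), and it was 1.63 and 1.52 against 3.56, 4.06 and 3.19 cpm in brain lines. *H19*, a maternally expressed noncoding RNA, was 0.114 and 0 cpm in the Nes-GFP lines and 45.8, 45.8 and 45.3 cpm in the Wnt1-Cre-mTmG lines, a count ratio of 858 (95% counting interval 237 to 7090.4). *Meg3* and *Rian*, neighbouring noncoding RNAs of the Dlk1-Dio3 domain, had no count in the Nes-GFP tail lines. *Meg3* reached 5.75, 6.66 and 5.01 cpm in the others, at least 36.2-fold, and *Rian* 5.13, 4.59 and 3.84 cpm, at least 28.2-fold. *Mest* and *Peg10*, both paternally expressed, were lower. *Mest* was 2076 and 2170.3 cpm in the Nes-GFP lines and 728, 724 and 728 cpm in the Wnt1-Cre-mTmG lines. *Peg10* was 563 and 557 cpm in the Nes-GFP lines and 217, 215 and 209 cpm in the Wnt1-Cre-mTmG lines, and its log2 fold change was -1.39 in the tail and -1.37 in the brain lines. *Nespas*, an antisense RNA of the Gnas domain, was lower (log2 fold change -1.24), but whether counting used strand is not given in the sources used here, and reads of overlapping genes cannot be assigned to it with certainty. Its call was lost without Wnt1-Cre-mTmG tail replicate 1. *Nnat*, *Peg3* and *Ndn* were not called.

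Of 10 genes tested that mark developmental stage, 2 were higher and 0 lower (20% and 0%, beside 15.8% and 6.66% of all tested genes), the higher share being near that of all genes. *Igf2bp1*, a fetal RNA-binding protein, was 0.965 and 0.60 cpm in the Nes-GFP lines and 31.2, 31.7 and 31.4 cpm in the Wnt1-Cre-mTmG lines, and *Igf2bp3*, its relative, was 36.5 and 34.9 cpm in the Nes-GFP lines and 87.5, 87.4 and 82.9 cpm in the Wnt1-Cre-mTmG lines. Brain lines had at most 1 count of *Igf2bp1* and, for *Igf2bp3*, 0.559 and 1.32 against 1.09, 0.396 and 0.776 cpm. The nuclear factors I *Nfia*, *Nfib* and *Nfix*, which rise with gliogenesis, were not called.

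**Figure D5:**
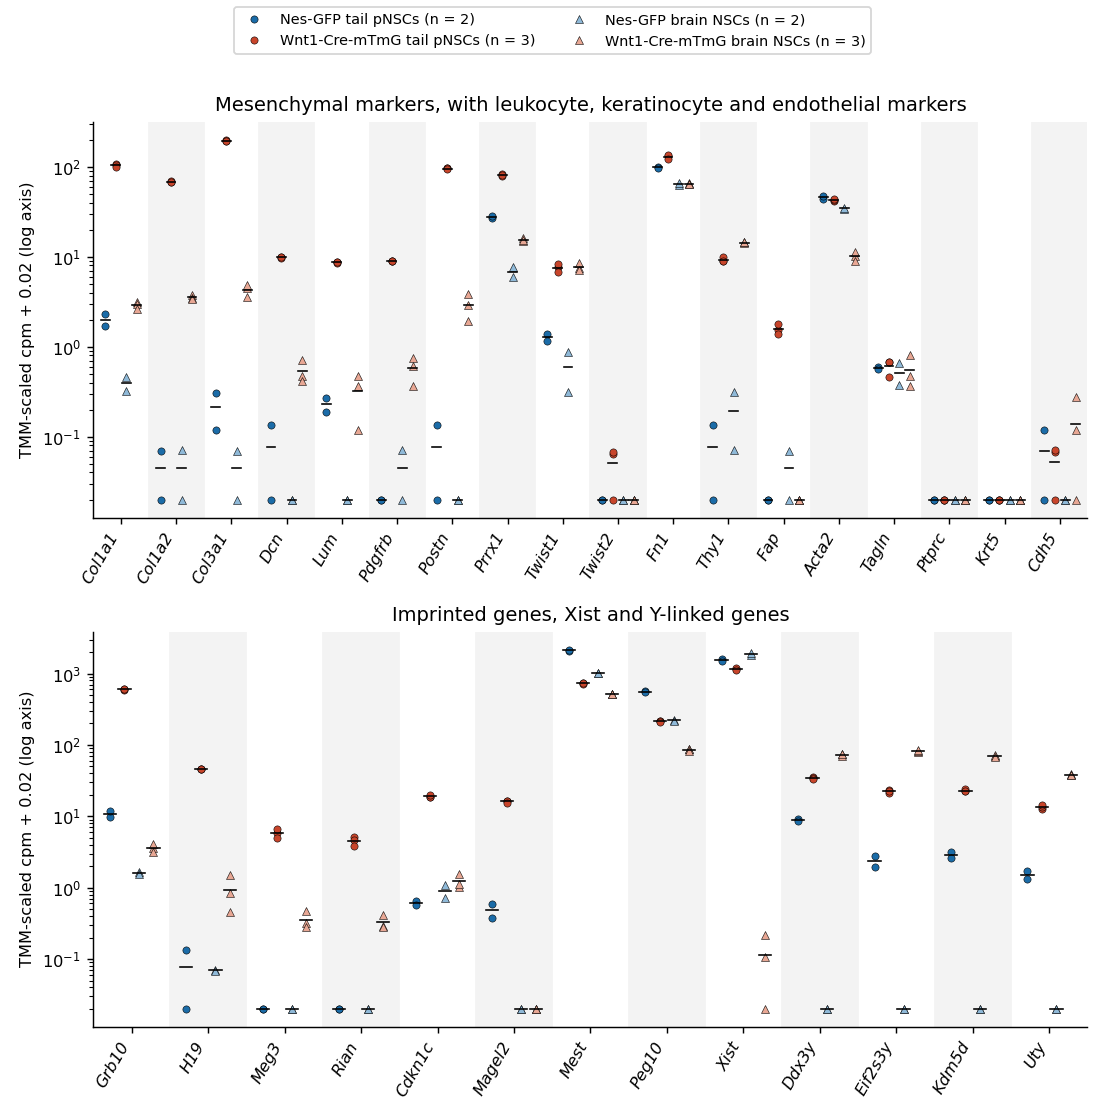
Levels of mesenchymal markers with 3 markers of other cells (top) and of imprinted genes, Xist and Y-linked genes (bottom) in every library (TMM-scaled cpm plus 0.02, log axis); points are libraries and bars are group means. *Col1a2*, *Col3a1* and *Postn* are highest in the Wnt1-Cre-mTmG tail lines, *Ptprc* and *Krt5* lie at 0 in all groups, and both *Xist* and Y-linked genes are present in every tail library.

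RNA of X inactivation and of the Y chromosome occurred together in the tail lines and apart in the brain lines. *Xist*, the noncoding RNA of the silent X chromosome in females, was 1579 and 1494 cpm in the Nes-GFP lines and 1159, 1216 and 1116 cpm in the Wnt1-Cre-mTmG lines and was not called (-0.40 log2). The Y-linked genes *Ddx3y*, *Eif2s3y*, *Kdm5d* and *Uty* were also present in every tail library, *Ddx3y* at 9.2 and 8.7 cpm in the Nes-GFP lines and 35.4, 34.7 and 33.2 cpm in the Wnt1-Cre-mTmG lines, and all called higher in the Wnt1-Cre-mTmG tail lines, with log2 fold changes of 1.95, 3.22, 3.00 and 3.15. Brain lines held one kind of RNA, with *Xist* at 1809 and 1966 cpm and no count of these 4 genes in Nes-GFP lines, and *Ddx3y* at 73.7, 70.5 and 74.6 cpm with *Xist* at most 2 counts in Wnt1-Cre-mTmG lines. Each tail library therefore held RNA of both kinds, in different proportion between the groups, and the labels give no sex. This stands beside the methods' description of picked clusters as usually clonal. Whether clusters or lines of both sexes were pooled for a library is not stated. The brain comparison thus also changes the kind of RNA outright, and the tail minus brain test carries this change. The part of these X- and Y-linked differences in other genes was not tested. *Tsix*, antisense to *Xist*, was too low to test.

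Antigen presentation and interferon genes were higher in 7 and lower in 1 of 18 cases (38.9% and 5.56%, beside 15.8% and 6.66% of all tested genes), most at low levels. *Bst2*, an interferon-induced membrane protein, was 0.284 and 0.050 cpm in the Nes-GFP lines and 2.18, 2.3 and 2.61 cpm in the Wnt1-Cre-mTmG lines, and it was called higher in the brain lines too, on at most 17 counts in a library. *Irf7*, *Psmb8* and *Oasl2* were called higher but stayed below 1 cpm in all tail libraries, and the call of *Psmb8* was lost without Nes-GFP tail replicate 1 or Wnt1-Cre-mTmG tail replicate 3. *Tap1*, the peptide transporter of antigen presentation, was lower at 15.6 and 17.9 cpm in the Nes-GFP lines and 6.95, 6.89 and 8.03 cpm in the Wnt1-Cre-mTmG lines, and *B2m*, *Stat2* and *Tmem173* were not called.

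Of hypoxia and glycolysis genes 3 were higher and 2 lower of 15 (20% and 13.3%, beside 15.8% and 6.66% of all tested genes). *Vegfa*, the vascular growth factor, was 64.7 and 59.2 cpm in the Nes-GFP lines and 239, 246 and 237 cpm in the Wnt1-Cre-mTmG lines, log2 fold change 1.96 ± 0.04 (adjusted p = 3.57e-60). *Egln3*, an oxygen sensor, was higher by 1.16 log2. The glycolytic enzyme *Eno1* was lower at 885 and 904 cpm in the Nes-GFP lines and 413, 413 and 414 cpm in the Wnt1-Cre-mTmG lines, and *Aldoa*, *Ldha* and *Pgk1*, of the same pathway, were not called (-0.51, -0.82 and -0.22). *Ankrd37*, a hypoxia target, was lower at 1.7 and 1.6 cpm in the Nes-GFP lines and 0.357, 0.516 and 0.767 cpm in the Wnt1-Cre-mTmG lines.

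Among all genes with at least 10 cpm in the higher tail group, some of the largest differences were shared by the brain lines. *Phyh*, which oxidizes branched fatty acids in peroxisomes, had no count in any Nes-GFP library and 17.2, 17.3 and 16.9 cpm in Wnt1-Cre-mTmG tail lines (chr2:4919019-4938730, GRCm38), at least 107-fold, and 13.3, 13 and 12.8 cpm in the brain lines of that experiment. *Luzp2*, a leucine zipper protein, was at 0 against 16, 14.5 and 14.9 cpm in the tail and 0.508 and 0.294 against 27.2, 27.9 and 27.8 cpm in the brain. *Dsc2*, a desmosomal cadherin, was 0 and 0.050 cpm in the Nes-GFP lines and 18.5, 16.8 and 18.1 cpm in the Wnt1-Cre-mTmG lines, and 2.46, 2.77 and 2.33 cpm in Wnt1-Cre-mTmG brain lines against 0 in the Nes-GFP ones. On the lower side *AC122119.2*, annotated as a processed pseudogene, whose reads may come from a parent gene, was 35.1 and 32.9 cpm in the Nes-GFP lines and 0.891, 0.844 and 0.818 cpm in the Wnt1-Cre-mTmG lines, and *Hydin*, of motile cilia, was 21.2 and 22.2 cpm in the Nes-GFP lines and 0.401, 1.22 and 1.02 cpm in the Wnt1-Cre-mTmG lines, both called lower in the brain as well. The log2 fold changes of *AC122119.2* were -5.30 in the tail and -5.55 in the brain, and those of *Hydin* -4.63 and -3.25. *Rpl23a*, a ribosomal protein gene with many processed copies, was 54.5 and 77.5 cpm in the Nes-GFP lines and 4.37, 5.95 and 3.84 cpm in the Wnt1-Cre-mTmG lines and is uncertain where reads were split between copies.

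Other large falls were larger in the tail than in the brain comparison or went the other way there. *Gjc3*, a glial connexin, was 109 and 112 cpm in the Nes-GFP lines and 4.41, 4.83 and 5.01 cpm in the Wnt1-Cre-mTmG lines, while the brain lines held 7.11 and 7.79 against 14.1, 13.9 and 13.5 cpm (tail minus brain difference -5.43 ± 0.14, adjusted p = 4.25e-50). *Ulbp1*, a stress ligand of natural killer cells, was 26.5 and 28 cpm in the Nes-GFP lines and 1.69, 1.22 and 1.13 cpm in the Wnt1-Cre-mTmG lines and went the other way in the brain (8.59 and 7.64 against 34.2, 33.3 and 29.8 cpm). *Ccbe1*, a secreted factor of lymphatic growth, was 90.2 and 91.5 cpm in the Nes-GFP lines and 6.2, 7.36 and 6.65 cpm in the Wnt1-Cre-mTmG lines. *Calca*, which encodes calcitonin and the neuropeptide CGRP, was 16.2 and 18 cpm in the Nes-GFP lines and 0.624, 0.985 and 1.07 cpm in the Wnt1-Cre-mTmG lines and had at most 4 counts in a brain library. *Grin2a*, a subunit of NMDA glutamate receptors, was 13.2 and 14.3 cpm in the Nes-GFP lines and 0.446, 0.516 and 0.256 cpm in the Wnt1-Cre-mTmG lines. *Grm3*, a metabotropic glutamate receptor, was 13.3 and 14.1 cpm in the Nes-GFP lines and 1.11, 1.03 and 0.767 cpm in the Wnt1-Cre-mTmG lines, while brain lines held it at 61 and 66.3 against 54.2, 49 and 51.7 cpm. *Ptprv*, a phosphatase-like protein of the p53 response, was 30.1 and 30.0 cpm in the Nes-GFP lines and 2.59, 2.34 and 2.56 cpm in the Wnt1-Cre-mTmG lines.

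The test of tail against brain differences also gave genes with opposite or separate differences in the tissues. *Ddr2*, a collagen receptor, was 6.98 and 7.85 cpm in the Nes-GFP lines and 104, 100.2 and 99.5 cpm in the Wnt1-Cre-mTmG lines in the tail, and 191 and 193 against 18.9, 21.4 and 23.2 cpm in the brain, a difference of differences of 6.94 ± 0.08 (adjusted p = 5.11e-74). *Cyb5r2*, a reductase, was 0.227 and 0.050 cpm in the Nes-GFP lines and 14.7, 15.6 and 15.2 cpm in the Wnt1-Cre-mTmG lines, with at most 7 counts in a brain library. *Crabp1*, which binds retinoic acid in the cell, was 0 and 0.050 cpm in the Nes-GFP lines and 11.4, 9.52 and 10.0 cpm in the Wnt1-Cre-mTmG lines, a count ratio of 388 (95% counting interval 69.5 to 15366), and at most 5 counts in a brain library. *Fndc3c1*, an X-linked gene, was 55.1 and 58 cpm in the Nes-GFP lines and 9.05, 9.05 and 9.15 cpm in the Wnt1-Cre-mTmG lines in the tail and 0 against 10.2, 12.7 and 13.1 cpm in the brain.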

How the data were processed

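Per the labels, the submitters' processing notes and the study's methods, polyA-selected RNA was sequenced as single-end reads, and the authors aligned them to GRCm38 with HISAT2 and used Cufflinks for annotation and htseq-count for the number of reads per gene. The deposited values are raw counts in 1 table of 28244 genes and 28 libraries. The annotation release and strand setting are not given in the sources used here, so overlapping and antisense genes are uncertain, as are genes with near-identical copies (*H2-K1*, *H2-D1*, *Rpl23a*, *Fdps*). Groups were taken from the titles.

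Counts of 10 libraries in 4 groups were fitted together with edgeR 4.0.16 in R 4.3.3 (filterByExpr at a count of 10 and a total of 15, TMM scaling, quasi-likelihood F-test, Benjamini-Hochberg adjustment over 14214 genes). Contrasts were tail, brain and their difference, and a gene was called at an adjusted p under 0.05 and a log2 fold change of at least 1 in size. Cpm values are TMM-scaled, summed list levels are plain cpm, and errors of fold changes are standard errors (s.e.). Each s.e. was derived from the F-test, as the absolute log2 fold change divided by the square root of the F statistic. A fold is the ratio of group means. Against libraries without a count the fold is a lower bound at 3 counts per library, and with 1 to 3 counts in a group it is a ratio of counts with an exact 95% interval, which covers counting error only. Similarity used quantile-normalized log2(count + 1) values, the scale of the study. DESeq2 1.42.0, limma 3.58.1 and other scalings, filters and sample sets were run as alternatives. On simulated counts for the tail comparison, 99% of 3- and 4-fold changes were called, with 2 false calls among 14214 genes. The simulation used the spread of these libraries and set changes only in genes with a mean above 1 cpm. It changed 200 genes, as many up as down. It therefore covers neither calls on genes at lower levels nor scaling where many genes differ, most of them in the same direction.

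The groups and gene lists were chosen with earlier results of these data known, and 6 lists were written after values were seen in this work. Genes were named by rule. The rule took all members of the identity, reporter, Hox, caudal, brain region, neural tube and X/Y lists, up to 4 called genes in each direction with the largest fold and up to 3 uncalled genes of highest level from every other list, the 12 largest rises and falls among called genes with at least 10 cpm in the higher tail group, and the 6 largest rises and falls of the difference between contrasts. Some genes that the rule takes are not reported here. Other genes are said to be chosen after their values were seen. Coordinates are from GENCODE M21 (GRCm38).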

Additional observations from a re-analysis of the deposited data

Results flagged for a closer look

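The difference between Wnt1-Cre-mTmG and Nes-GFP lines was itself unlike in tail and brain for 2701 genes, by edgeR's test of the tail difference minus the brain difference, and the genes named in the report that were among them are given here with that value on the log2 scale. Genes with 3 or fewer counts in any of the 10 libraries were left out, because a difference of folds against such a level has no fixed size. Every gene listed had an adjusted p under 0.05 and a difference of at least 1 in size. Groups of 2 and 3 libraries were too small to test for a single library that stands apart. The cause of these differences was not tested.

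Among sterol and lipid genes the one with a higher difference in the tail was *Apoe* (2.41). Those with a lower one were *Idi1* (-3.43), *Fdps* (-2.86), *Stard4* (-2.56), *Acat2* (-2.52), *Nsdhl* (-2.50), *Hmgcs1* (-2.48), *Msmo1* (-2.2), *Elovl6* (-1.80), *Fasn* (-1.5), *Scd1* (-1.40) and *Acly* (-1.23). Amino acid, stress and chaperone genes with a higher difference in the tail were *Chac1* (6.22), *Cbs* (3.81), *Slc7a5* (3.70), *Ddit3* (3.58), *Atf3* (3.57), *Asns* (3.43), *Slc3a2* (3.23), *Pck2* (2.91), *Aldh1l2* (2.91), *Shmt2* (2.36), *Vldlr* (2.32), *Pycr1* (2.2), *Herpud1* (2.17), *Phgdh* (1.53), *Atf4* (1.40), *Slc7a11* (1.39), *Aars* (1.37), *Gars* (1.19) and *Sesn2* (1.15). Those with a lower one were *Sdf2l1* (-2.39), *Calr* (-1.45) and *Hspa5* (-1.44). Stem cell identity and reporter genes with a higher difference in the tail were *Gt(ROSA)26Sor* (3.12), *Sox1* (3.00), *Hes5* (1.55), *Slc1a3* (1.5), *Msi1* (1.45), *Sox2* (1.36), *Pax6* (1.16) and *Hes1* (1.03). The one with a lower difference was *Nes* (-1.33). Position genes with a higher difference in the tail were *Dbx2* (2.45), *En1* (2.35), *Hoxa5* (1.92), *Irx2* (1.85), *En2* (1.85), *Ptch1* (1.65), *Gbx2* (1.54), *Shh* (1.51), *Nkx2-2* (1.48), *Zic5* (1.14) and *Meis1* (1.08). Those with a lower one were *Lhx2* (-4.38), *Irx5* (-2.92), *Irx3* (-2.45), *Wnt5a* (-1.24) and *Egr2* (-1.05).

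Signalling genes with a higher difference in the tail were *Hey2* (3.42), *Dkk3* (3.29), *Erbb4* (2.85), *Nog* (2.75), *Dll4* (2.12), *Fgf2* (1.91), *Dll3* (1.45), *Notch1* (1.30) and *Fgfr2* (1.27). Those with a lower one were *Dusp5* (-2.05) and *Sfrp1* (-1.31). Among cell cycle and p53 genes the one with a higher difference in the tail was *Cdkn1c* (4.53). Those with a lower one were *Ccnd1* (-2.47), *Ccne1* (-2.33), *Cdkn2b* (-1.48), *Trp53inp1* (-1.37), *Ccng1* (-1.21) and *Bax* (-1.16). Glial and neuronal genes with a higher difference in the tail were *Gpr17* (2.95), *Slc1a2* (2.69), *Elavl3* (2.68), *Aqp4* (2.59), *Rbfox3* (2.45), *S100b* (2.11), *Clu* (1.55), *Aldoc* (1.34) and *Elavl4* (1.27). The one with a lower difference was *Syt1* (-1.51). Remaining list genes with a higher difference in the tail were *Grb10* (4.62), *Ngfr* (2.60), *Acta2* (1.64), *Igf2bp3* (1.58) and *Vegfa* (1.12). Those with a lower one were *Lor* (-2.57), *Kdr* (-1.77), *Igfbp3* (-1.67), *Cd68* (-1.63), *Fbn1* (-1.48), *Nespas* (-1.39), *Tap1* (-1.29), *Ldha* (-1.20) and *Eno1* (-1.03). Outside these lists the values were *Ulbp1* (-6.32), *Grin2a* (-6.31), *Gjc3* (-5.43), *Ccbe1* (-4.54), *Grm3* (-3.50), *Ptprv* (-2.98), *Hydin* (-1.38) and *Ddr2* (6.94).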

How the results depend on the processing

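Depth limits the low genes, many of which left the comparison when a mean count of at least 100 was asked for. At a mean count of 100 the tail comparison called 1464 genes, the brain comparison 646 and the test between them 1494. List counts there were 2 higher and 2 lower for HoxA, 3 for HoxB, 0 for HoxC (no HoxC gene was left to test) and 6 for fibroblast markers. With no limit on the fold change the counts were 10961, 8696 and 9152, and 13 identity genes and 14 imprinted genes were higher and 19 cell cycle genes lower. DESeq2 called 3048 genes in the tail, upper quartile scaling 3200, no filter 3533 and limma on quantile-normalized values 3112, of which the share higher is given above (brain 51.46% against 73.68%, test between them 50.98% against 57.13%). Leaving out each library in turn gave 3097 to 3325 tail calls, 1907 to 2106 brain calls and 2641 to 2702 for the test between them, with 4 to 5 HoxC genes, 4 to 5 lower forebrain genes and 34 to 36 ATF4-linked genes. The list counts were added as alternatives after the data were seen. The correlation of the tail groups was 0.96 with Spearman's rho, 0.9723 on TMM values and 0.8618 over the 1000 most variable genes. The order of correlations given above changed over those 1000 genes.

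Of 284 named genes with more than 3 counts in a tail library, 175 kept direction and call under all alternatives. Calls that rested on a fold near the limit were lost under some of them for *Notch1*, *Hbegf*, *Fgfr2* and *Gars*, and calls on few counts for *Hes7*, *Dlx1*, *Dhh*, *Psmb8*, *Shh*, *Tek*, *Nespas* and *Zic4*. Without Nes-GFP tail replicate 1, adjusted p from edgeR was 0.102 for *Dhh*, 0.241 for *Dlx1*, 0.0581 for *Hes7*, 0.117 for *Psmb8*, 0.0729 for *Shh*, 0.275 for *Tek* and 0.125 for *Zic4*. It was 0.276 for *Hes7* and 0.143 for *Zic4* without Nes-GFP tail replicate 2, 0.0702 for *Psmb8* without Wnt1-Cre-mTmG tail replicate 3, and 0.0932 for *Shh* and 0.17 for *Zic4* without Wnt1-Cre-mTmG tail replicate 2. Log2 fold changes fell under the limit for *Nespas* without Wnt1-Cre-mTmG tail replicate 1 and for *Tek* without replicate 2. With limma on quantile-normalized values the calls of *Acacb*, *Dll4*, *Hoxd3*, *Irf7*, *Krt1*, *Mbp*, *Nkx6-2* and *T* were also lost. With DESeq2 those of *Psmb8* (0.0524), *Shh* (0.0624) and *Zic4* (0.0581) were lost. *Hes7* was also lost with DESeq2 (0.156), no filter (0.0802), the fit of all 28 libraries (0.0851) and without either Nes-GFP brain library (0.0517 and 0.0515). In turn, genes not called passed the limit under some alternatives, *Bcas1* (-1.01 with no filter), *Ptch1* (1.02 with upper quartile scaling), *En1* (1.03 with the replicate block), *Bax*, *Hoxa7*, *Egr2* and *Dlx2* among them, and with no limit on the fold change every gene past the adjusted p was called. The log2 fold change changed sign with limma on quantile-normalized values for *En2* (-0.58), *Gli1* (-0.17), *Krt10* (-0.22), *Msx1* (-0.50), *Mylip* (-0.50), *Nfia* (0.003), *Rbfox3* (-0.22), *Tagln* (-0.74), *Tbx6* (-0.49) and *Zic4* (-0.065), with the filter at a mean count of 100 for *Gbx2* (0.022), *Nfia* (0.011) and *Olig1* (0.0098), with the fit of 5 tail libraries for *Nnat* (-0.032), with the fit of all 28 libraries for *Nnat* (-0.036), with no filter for *Nnat* (-0.036), with DESeq2 for *Nnat* (-0.013), and with upper quartile scaling for *Gbx2* (5e-04). Of these genes *Zic4* was called in the report. Leaving out single libraries turned the sign of *En2* (-0.56 to 1.36), *Fzd3* (-0.0057 to 0.055), *Gbx2* (-0.19 to 0.048), *Mylip* (-0.097 to 0.56), *Nnat* (-0.052 to 0.023), *Tagln* (-0.063 to 0.20) and *Tbx6* (-0.11 to 1.18), lowest to highest value in parentheses. The cause of these changes was not tested.

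The replicate numbers did not pair the libraries. Only 2 numbers are shared by the tail groups, and deviations of equally numbered libraries from their group means correlated at -0.0241 to -0.0098. With the replicate number as a block (replicate block) the tail comparison called 3161 genes, 3101 of them shared with the fit without it, the brain comparison 1961 and the test between them 2676.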
